A study of Homo sapiens with 12 samples.

Results

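The nuclear-encoded subunits of the oxidative phosphorylation machinery were followed across HUDEP-2 cells, a human erythroid progenitor line, with and without stem cell factor (SCF) and with and without repression of an enhancer of EGR1. The members were taken by symbol: gene names beginning NDUFA, NDUFB, NDUFC, NDUFS or NDUFV with a number, UQCR, COX4 to COX8 with a letter, or ATP5, leaving out names that end as pseudogenes do. The rule found 81 of the 54628 gene rows, of which 36 belong to complex I, 9 to complex III, 17 to complex IV and 19 to complex V. The rule used symbols and no measured value, but the members were chosen with earlier results of these data known. Of the 81, 73 passed the filter on low counts and were tested together with 15492 genes in all.

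Oxidative phosphorylation moves electrons from NADH to oxygen through complexes I, III and IV of the inner mitochondrial membrane, and complex V uses the proton gradient that results to make ATP. Most subunits are encoded in the nucleus, translated in the cytosol and imported, whereas a small core set is encoded by mitochondrial DNA, so the complexes are built from products of both genomes. Erythroid progenitors hold mitochondria, which also carry out the first and last steps of haem synthesis, and clear them as they mature into red cells.

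The cells carried KRAB-dCas9, a catalytically dead Cas9 fused to a repressor domain, delivered by lentivirus and sorted for GFP, with either a scrambled guide (sgControl) or a guide to an element 1.2 kb upstream of EGR1 (sgEGR1). Both lines were starved for 5 h and then given PBS or SCF at 50 ng/mL for 1 h. This gave 4 groups of 3 RNA-seq libraries, which the methods call biological replicates: sgControl with PBS, sgControl with SCF, sgEGR1 with PBS and sgEGR1 with SCF. All groups therefore share the same line, the repressor and the starvation.

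Library totals ranged from 23498065 to 32039680 estimated counts. EGR1, whose element was targeted, measured 10.9, 5.99 and 7.45 counts scaled to a library of 1e6 (CPM) in sgControl PBS replicates 1, 2 and 3, 208, 239 and 171 in sgControl SCF, 2.04, 1.12 and 0.977 in sgEGR1 PBS, and 40.4, 57.4 and 204 in sgEGR1 SCF. The EGR1 level of sgEGR1 SCF replicate 3 lay inside the range of sgControl SCF and went against its label, so counts of members called are also given without that library. The erythroid genes TFRC, KLF1 and GATA1 had at least 6902 counts in every library, and MPO, ELANE, PF4 and CD3E, which mark other blood lineages, had 0 in all 12. Of the same list, PTPRC, the leukocyte antigen CD45, had 529 to 1095 counts and CD14 0 to 14.

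The promoters of these genes are shown first because the members are known for sharing regulatory letters. RefSeq windows on GRCh38.p14, from 250 bases before to 50 after the start, matched 65 of the 81 symbols. Those without an entry included ATP5F1B, ATP5F1D, ATP5MC3, ATP5MF, ATP5MGL, COX4I2, COX6C, COX7A1, NDUFA4, NDUFB5, NDUFB9, NDUFC2, NDUFS5, UQCRB and UQCRHL. The letters recognised by nuclear respiratory factor 1 (NRF1), GCGC and TGCGC with any base between, stood on either strand in the windows of 15 members, 23.1% against 6.98% of all 27305 symbols with a window. The ETS letters CCGGAAGT, read by the GABP family, stood in 11 (16.9% against 4.95%), the YY1 letters AAGATGGCG in 8 (12.3% against 2.14%) and the cyclic AMP response letters TGACGTCA in 4 (6.15% against 2.25%). The EGR letters GCGTGGGCG, which share the run GGGCG with the GC box GGGCGG, stood in 1 member, COX5A (1.54% against 0.96%), and the GC box itself in 42 (64.6% against 48.3%). The letters of the oestrogen-related receptors, TCAAGGTCA, stood in 0 (0.432% of all). These are matches of letters only, and no binding was measured here. Of the members with a window, the NRF1 letters stood in 6 of 24 that were lower in replicate 1 and in 7 of 36 tested members that were not, a comparison described below. The stretches below, 5′ to 3′ on the strand of the gene with the matched letters in capitals, are those of members described later, each named with its motif.
UQCRC1 (NRF1 letters, chr3:48609674-48609703, minus strand, within an annotated exon): gtacggtactGCGCCTGCGCcgcgaccgcc
NDUFA12 (NRF1 letters, chr12:95003778-95003839, minus strand): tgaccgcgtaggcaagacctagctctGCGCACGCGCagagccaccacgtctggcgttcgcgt
NDUFB4 (NRF1 letters, chr3:120596247-120596308, plus strand): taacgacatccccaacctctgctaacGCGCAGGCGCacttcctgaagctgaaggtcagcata
ATP5F1A (ETS letters, chr18:46098328-46098355, minus strand, mostly within an annotated exon): gaggggcagtACTTCCGGgtcaggtggg
ATP5MC1 (cyclic AMP response letters, chr17:48892704-48892763, plus strand): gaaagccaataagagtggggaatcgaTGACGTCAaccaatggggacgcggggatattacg
NDUFA10 (cyclic AMP response letters, chr2:240025373-240025400, minus strand, mostly within an annotated exon): accccggccgTGACGTCAcggcagcgcg
COX5A (EGR letters, chr15:74938121-74938181, minus strand): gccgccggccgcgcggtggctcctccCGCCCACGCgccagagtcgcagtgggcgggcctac

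Levels between genes were compared as CPM per kilobase of median transcript length, averaged over the 12 libraries. UQCRB, a small subunit of complex III, was highest at 512, but measured 39.1 with the length of its canonical transcript. ATP5F1B, the catalytic beta subunit of the F1 head of ATP synthase, measured 427 by either length. The median member of complex I measured 97.2, against 130.1 in complex III, 197 in complex IV and 179 in complex V. With canonical lengths these medians were 93.6, 84.1, 186 and 143, so complexes I and III changed places, and the order of neighbouring members was not fixed by these data.

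**Figure D1:**
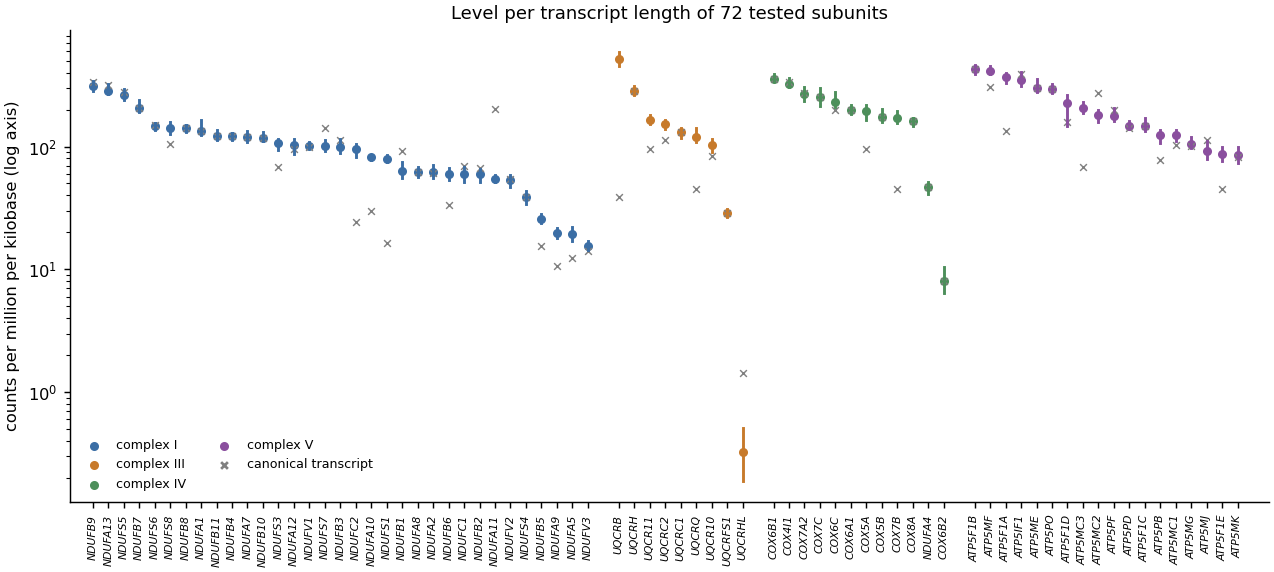
Level of the 73 tested members, with 1 of complex I left out, in CPM per kilobase (log axis), by complex, with circles for the mean of 12 libraries by median transcript length, lines from the lowest to the highest library and crosses for the canonical transcript length. UQCRB stands at 512 by its circle and 39.1 by its cross, and UQCRHL is lowest at 0.325.

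Genes that are used in place of each other in different tissues were measured side by side per kilobase. COX4I1, the common form of the complex IV subunit 4, measured 325, and COX4I2, its form in lung, was listed at 0 in all 12 libraries. COX6A2, COX7A1, COX7B2 and COX8C, forms known from muscle or testis, were likewise listed at 0, whereas COX6A1, COX7A2 and COX8A measured 199, 265 and 161. COX6B1 measured 356, and the testis form COX6B2 was also detected, at a mean of 12.5 CPM. UQCRH measured 285 against 0.325 for its intron-less copy UQCRHL. NDUFA4 measured 46.6, and NDUFA4L2, its paralog, falls outside the symbol rule. Among members of at least 10 CPM, COX6B2 had the widest spread over the libraries (coefficient of variation 15.6%) and NDUFV1 the narrowest (3.16%).

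NDUFA3 and NDUFA6 of complex I were also listed at 0 in all libraries (chr19:54102728-54109257 and chr22:42085526-42090884). Several neighbours were also at 0: OSCAR, TFPT, LENG1, MBOAT7 and TSEN34 beside NDUFA3 and SMDT1 and CYP2D6 beside NDUFA6, while CNOT3 beside NDUFA3 had 1829 counts over the 12 libraries. Both subunits are part of every complete complex I. Why they were listed at 0 was not tested. A count of 3 corresponded to 0.0936 to 0.128 CPM across libraries. The remaining member without a test, ATP5MGL, averaged 0.106 CPM.

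Replicate 1 of every group was compared with replicates 2 and 3, with group as a term in the fit. Of the 73 members, 32 were lower in replicate 1 and 0 were higher (edgeR quasi-likelihood test, Benjamini-Hochberg adjusted p under 0.05), a share of 43.8% where 26.6% of all genes were called in either direction and 13.4% as lower and 13.1% as higher. The members that changed were 5.49% to 16.2% lower, so the differences were small. The labels list no batch, date or lane beside the number, so what sets replicate 1 apart was not tested. In bulk samples, fewer cells of a type and less RNA per cell cannot be told apart. The 73 members had a median log2 fold change of -0.10, with 67 of them negative where 49.1% of all genes were, against a median of 0.00 over all genes. Without the library labelled sgEGR1 SCF replicate 3, 29 members were called.

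Complex I takes electrons from NADH, and 14 of its 34 tested members were lower in replicate 1, among them 4 of 7 core subunits (NDUFS1, NDUFS3 and NDUFV2 among them) and 10 of 27 accessory ones (NDUFA9, NDUFA10, NDUFA12, NDUFB3, NDUFB4, NDUFB6, NDUFB9, NDUFC1, NDUFC2 and NDUFS5). NDUFC2 (chr11:78068297-78079862, 3 exons), an accessory subunit of the membrane arm, measured 47.8, 50.9, 48.2 and 46.5 CPM in the replicate 1 libraries of sgControl PBS, sgControl SCF, sgEGR1 PBS and sgEGR1 SCF, and 51.4 to 58.8 with a median of 55.7 in the other 8. The 2 sets did not overlap, with a log2 fold change of -0.20 ± 0.04 (SE, adjusted p = 0.00275 by edgeR). Its reads cannot be told from those of its read-through transcript NDUFC2-KCTD14 or, if strand was not used, of THRSP. NDUFA12, whose promoter is shown above, measured 45.8, 48.9, 50.1 and 53.1 CPM against 53.6 to 60.0, also without overlap. NDUFB6, also of the membrane arm, measured 41.1, 42.2, 41.6 and 40.5 CPM against 42.7 to 51.2 (log2 fold change -0.20). Smaller differences passed for the core subunit NDUFS1 (-0.08, adjusted p = 0.0435 by edgeR) and the accessory NDUFA10 (-0.08, adjusted p = 0.0154) and NDUFB4 (-0.08, adjusted p = 0.0374), and the libraries of NDUFS1 overlapped, at 179.6 to 188 CPM against 184 to 204. Over 23 alternatives NDUFS1 lost its call in 15, NDUFB4 in 16 (DESeq2, no filter on low counts and the length trend among them) and NDUFA10 in 6. NDUFV1, the core subunit that binds NADH, had a log2 fold change of -0.06 that did not pass (SE 0.03, edgeR adjusted p = 0.163).

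Complex III passes electrons to cytochrome c, and 4 of its 9 members were lower in replicate 1: UQCRB, UQCRC1, UQCRC2 and UQCRH. UQCRC2 (chr16:21953288-21983660, 14 exons), a core protein that holds no redox centre, measured 197, 204, 200.5 and 203 CPM against 209.9 to 232 with a median of 223, with no overlap and a log2 fold change of -0.15 ± 0.03 (SE, adjusted p = 0.0017 by edgeR). UQCRB, the ubiquinone-binding protein, measured 296, 295, 294 and 321 CPM against 320.0 to 381 and overlapped only in sgEGR1 SCF (log2 fold change -0.19). UQCRC1 measured 202, 204, 196 and 187 CPM against 204 to 225, at the edge of the other libraries. UQCRFS1, the Rieske iron-sulphur protein, had a log2 fold change of 0.01 ± 0.03 (SE, adjusted p = 0.853 by edgeR). Complex IV reduces oxygen, and 4 of its 12 members were lower: COX5A, COX6B1, COX6C and COX7C. COX7C, a small subunit (chr5:86617928-86620962, 3 exons), had the widest change, at 133, 135, 143 and 153 CPM against 151 to 188 with a median of 170.1, and only its sgEGR1 SCF library reached into the range of the others. COX6C measured 138, 134, 133 and 132 CPM against 136 to 175, and COX6B1 165 to 167 against 167 to 190.3, so COX6C overlapped the others in part. The call of COX6B1 was lost in 13 of 23 alternatives. COX5A, a subunit on the matrix side whose promoter is shown above, was lower by a log2 fold change of -0.16 (SE 0.05), and COX4I1 did not pass (-0.07, adjusted p = 0.179 by edgeR). The log2 fold change of COX7C was -0.25 ± 0.05 (SE, adjusted p = 0.00399 by edgeR).

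Complex V makes ATP, and 10 of its 18 tested members were lower in replicate 1. These were 3 of 5 in the F1 part, which catalyses the synthesis, 3 of 4 in the stalk that holds it, all 3 genes of the rotating c ring, 0 of 5 other membrane subunits by edgeR and the inhibitor ATP5IF1. Among those membrane subunits, ATP5MJ was called lower by DESeq2 and with the replicate block. ATP5F1A (chr18:46080248-46104334, 12 exons), the alpha subunit of the head, measured 729, 725, 711 and 695 CPM against 779 to 839.6 with a median of 807. No replicate 1 library reached any other, and the log2 fold change was -0.18 ± 0.02 (SE, adjusted p = 9.46e-05 by edgeR). ATP5F1B measured 687, 729, 697 and 716 CPM against 743 to 817, again without overlap (log2 fold change -0.13, SE 0.02, edgeR adjusted p = 0.000946). ATP5MC1, ATP5MC2 and ATP5MC3, which encode the same mature c subunit behind different import sequences, had log2 fold changes of -0.12, -0.17 and -0.12 (SE 0.03 each). ATP5PO, of the stalk, changed least among those called in complex V (-0.11, adjusted p = 0.0363 by edgeR) and lost its call in 10 of 23 alternatives, and ATP5IF1 changed by -0.13.

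**Figure D2:**
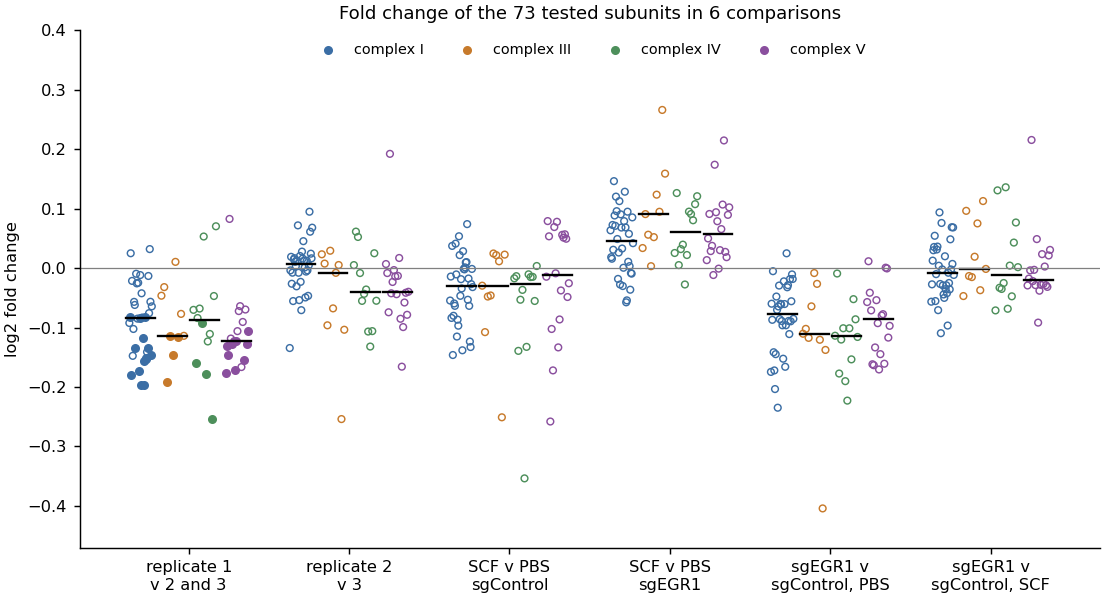
Log2 fold change of the 73 tested members in 6 comparisons, coloured by complex, with filled circles for members called by edgeR, open circles for the others and black lines for the median of each complex. Filled circles, 32 in number, stand in the comparison of replicate 1 alone, all below 0 and down to COX7C at -0.25.

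**Figure D3:**
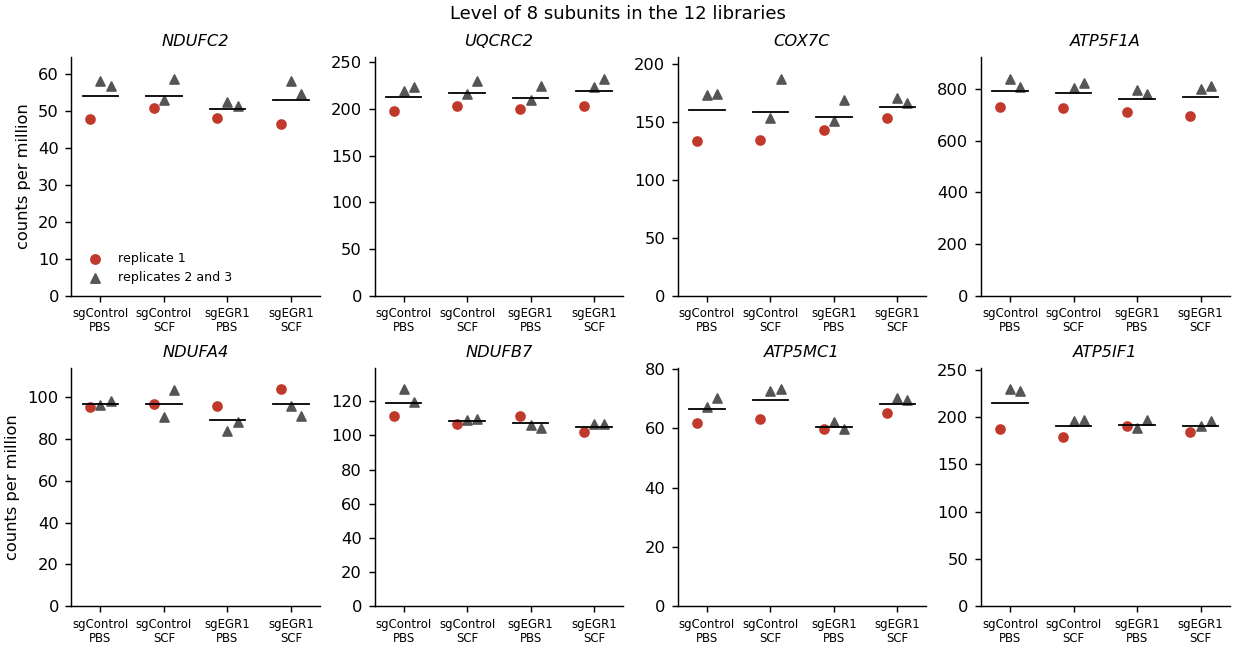
CPM of 8 members in each of 12 libraries by group, with red circles for replicate 1, grey triangles for replicates 2 and 3 and lines for group means. The 4 replicate 1 libraries of ATP5F1A, at 695 to 729, lie below the other 8, at 779 to 839.6, whereas those of NDUFA4 do not.

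Replicate 1 was the lowest library of its group in all 4 groups for 29 of the 73 members (39.7%, against 12.8% of all genes) and the highest in all 4 for 0. For 15 members all 4 replicate 1 libraries lay below all 8 others, where 6.24% of all genes did. The 6 members with positive values were UQCRFS1, NDUFA11, NDUFS8, COX6B2, NDUFA4 and ATP5F1D, none of which passed the test. ATP5F1D, the delta subunit of F1, measured 102 CPM in sgControl SCF replicate 3 and 153 to 183 in the other 11 libraries. Summed over the members, the replicate 1 libraries measured 8798 to 9027 CPM and the others 9192 to 10036, so that their mean was 7.30% lower. The sums for complexes I and V did not overlap between the 2 sets (2797 to 2846 against 2859 to 3146, and 3431 to 3531 against 3642 to 3947), whereas those for III and IV did. Replicates 2 and 3 did not differ by the test in any member (0 of 73 called by edgeR, where 0.00645% of all genes were, and 0 by DESeq2, with 5 at unadjusted p under 0.05, where 3.85% of all genes were). ATP5MJ (-0.17), COX7B (-0.13) and UQCRC2 (-0.07) had the smallest p there.

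**Figure D4:**
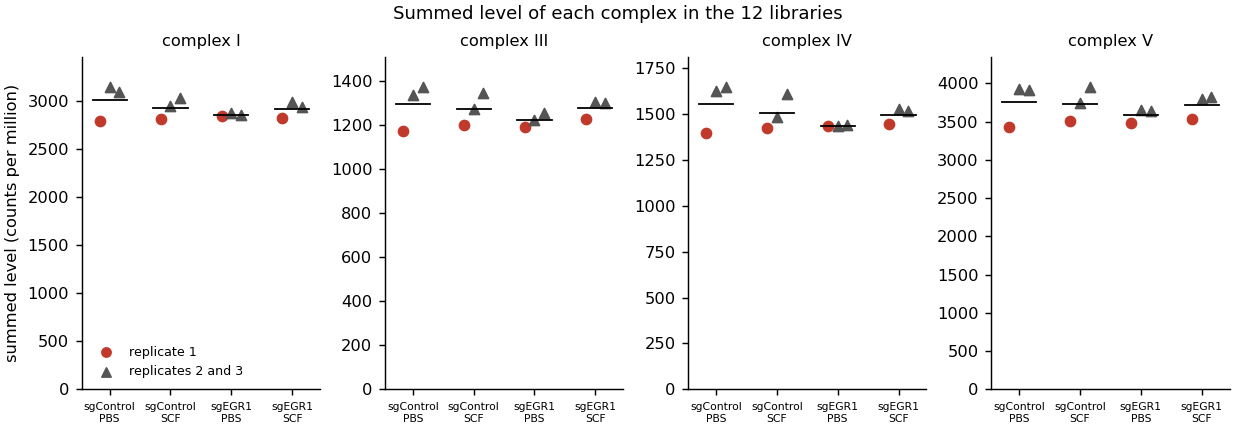
Summed CPM of the members of each complex in each of 12 libraries by group, with red circles for replicate 1, grey triangles for replicates 2 and 3 and lines for group means. The replicate 1 sums of complex V, 3431 to 3531, lie below the other 8, 3642 to 3947, and those of complex IV overlap them.

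Within the sgControl libraries alone, 20 members were lower in replicate 1, where 7.09% of all genes were lower and 14.5% changed either way, and the median log2 fold change was -0.15. Within the sgEGR1 libraries alone, 10 were lower and 1 higher, where 7.50% of all genes were lower and 14.2% changed either way, with a median of -0.04. The members lower in both were ATP5F1A (-0.17 and -0.18), ATP5MC2 (-0.22 and -0.12), ATP5PB (-0.20 and -0.11) and UQCRC2 (-0.15 and -0.14). NDUFA4, now placed in complex IV, was the member that rose in sgEGR1 replicate 1 (log2 fold change 0.16, edgeR adjusted p = 0.0241). The difference of the replicate 1 change between the guides, a test added after the data were seen, called 0 members (edgeR, background 0.00645%), although 20 of 73 had an unadjusted p under 0.05 against 7.80% of all genes. ATP5F1E, the epsilon subunit of F1, had the smallest p of the members in that test, at -0.26 in sgControl and 0.02 in sgEGR1 (unadjusted p = 0.00148 by edgeR). Between the treatments, the same kind of test also called 0 members (background 0.0129%, 1 at unadjusted p under 0.05 against 3.75% of all genes).

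**Figure D5:**
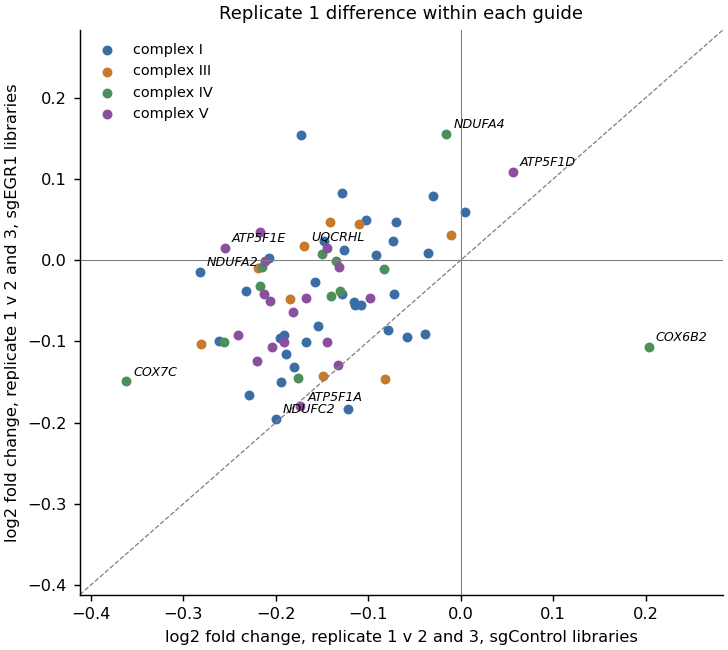
Log2 fold change of replicate 1 against replicates 2 and 3 for each member, in the sgControl libraries (horizontal axis) and in the sgEGR1 libraries (vertical axis), coloured by complex, with a dashed line where both are equal. ATP5F1A lies near that line at -0.17 and -0.18, and ATP5F1E above it at -0.26 and 0.02.

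Related genes outside the rule were counted in the same comparison. All 4 genes of complex II, which passes electrons from succinate, were lower in replicate 1: SDHA (-0.15), SDHB (-0.10), SDHC (-0.15) and SDHD (-0.19). Of the 43 assembly factors, which help the complexes form, 7 were lower and 0 higher, and of the 13 mRNAs of the mitochondrial genome 2 were lower, shares near the 13.4% of all genes called lower. Among the regulators, TFAM, which packages mitochondrial DNA, was lower (-0.18), and PPRC1, a coactivator, was higher (0.14). Cytochrome c (CYCS) was higher (0.15), as was the ADP/ATP carrier SLC25A5 (0.09), and the channel VDAC3 was lower. Of 4 subunits that the symbol rule misses, NDUFAB1 was lower (-0.12) and STMP1 higher (0.12). Genes of translation were counted beside them, and 33 of 75 mitochondrial ribosomal protein genes and 58 of 83 cytosolic ones were also lower in replicate 1. Transcript length moved with the comparison too, and in the class of lengths that held most members the median log2 fold change was -0.04 over all 1545 genes and -0.12 over 44 members. With the length trend removed, 29 members were called in place of 32, and the median over all 73 tested members was -0.08.

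SCF was compared with PBS in each guide and averaged over both. edgeR called 0 of 73 members in sgControl, where it called 2.89% of all genes, 0 in sgEGR1, where it called 2.59%, and 0 averaged, where it called 9.03%. At unadjusted p under 0.05 there were 6 members in sgControl (14.3% of all genes), 4 in sgEGR1 (15.0%) and 3 averaged (22.7%). DESeq2 also called 0 in each. The median log2 fold change of the members was -0.03 in sgControl, with 51 negative where 51.8% of all genes were, and 0.06 in sgEGR1, with 62 positive and 50.1% of all genes negative, while the median over all genes was near 0 in both. The sgControl median was not stable in sign: it was 0.02 without sgControl SCF replicate 1, 0.01 without sgControl PBS replicate 3 or with the length trend removed, -0.01 without sgControl PBS replicate 2, -0.07 without sgControl SCF replicate 3 and -0.09 without sgControl PBS replicate 1. The sgEGR1 median was 0.04 without sgEGR1 SCF replicate 2, 0.08 without sgEGR1 SCF replicate 1 and 0.03 with the length trend removed. Of the 73 intervals, 71 in sgControl and 72 in sgEGR1 lay within a 1.5-fold change either way. Medians by complex were -0.03, -0.03, -0.03 and -0.01 for complexes I, III, IV and V in sgControl and 0.05, 0.09, 0.06 and 0.06 in sgEGR1. The replicate 1 libraries entered all of these groups, so a term for them was also tried. With it 1 member was called in sgControl, where 8.32% of all genes were, and 1 in sgEGR1, where 8.56% were.

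NDUFB7, an accessory subunit of complex I, measured 111, 127 and 119 CPM in sgControl PBS, 107, 109 and 109 in sgControl SCF, 111, 106 and 104 in sgEGR1 PBS and 102, 107 and 106 in sgEGR1 SCF. The sgControl SCF libraries lay below the sgControl PBS ones, with a log2 fold change of -0.14 that did not pass (SE 0.05, edgeR adjusted p = 0.206). ATP5MK (0.21) in sgEGR1 and NDUFA13 (-0.15) in sgControl also had small unadjusted p, and neither passed. Averaged over the guides, ATP5MC1 (0.12), NDUFB7 (-0.08) and UQCRFS1 (0.07) had the smallest unadjusted p, with an adjusted p of 0.131, 0.178 and 0.215 by edgeR. ATP5MC1 measured 59.8, 62.2 and 59.8 CPM in sgEGR1 PBS and 65.3, 70.2 and 69.6 in sgEGR1 SCF, which did not overlap, and 61.8 to 70.4 and 63.3 to 73.2 in the sgControl groups, which did. Its log2 fold change in sgEGR1 was 0.17 ± 0.07 (SE, adjusted p = 0.217 by edgeR), and with a term for replicate 1 the adjusted p was 0.0234. ATP5IF1, the inhibitor of ATP synthase, measured 187, 229 and 227 CPM in sgControl PBS and 178, 196 and 197 in sgControl SCF, which overlapped, and its log2 fold change was -0.17 (SE 0.07, edgeR adjusted p = 0.279, and 0.0436 with a term for replicate 1). UQCRFS1 differed by 0.12 (log2) in sgEGR1 and did not pass (adjusted p = 0.220 by edgeR).

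The guides were compared within each treatment. edgeR called 0 of 73 members in PBS (background 0%, 10 at unadjusted p under 0.05, or 13.7% against 4.62% of all genes), 0 in SCF (background 0%, 0 at unadjusted p under 0.05 against 2.33% of all genes) and 0 averaged (background 0%, 7 at unadjusted p under 0.05 against 5.20% of all genes). DESeq2 called 0 members in each. edgeR called 0 of 15492 genes in each, so EGR1 itself was not called either. Its mean was 8.10 CPM in sgControl PBS and 1.38 in sgEGR1 PBS. These calls of 0 therefore do not show that the members were unchanged between the guides. In PBS, 70 of 73 members had negative values with a median log2 fold change of -0.09, where 49.7% of all genes were negative, and in SCF 43 were negative with a median of -0.01, where 50.1% of all genes were negative. The PBS median was -0.04 with the length trend removed, -0.06 without sgControl PBS replicate 3 and -0.14 without sgControl PBS replicate 1. NDUFB7 (-0.15, SE 0.05), ATP5MF (-0.14, SE 0.05) and COX5B (-0.18, SE 0.06) had the smallest unadjusted p in PBS, and their edgeR adjusted p was 0.999 each. That value depended on the setting. Over 22 alternatives by edgeR or DESeq2, their lowest adjusted p was 0.116, 0.151 and 0.122, and none passed. In SCF the smallest p belonged to UQCR11 (0.10), UQCRFS1 (0.08) and COX8A (0.08), and averaged to NDUFB7 (-0.10), ATP5MF (-0.09) and NDUFA5 (-0.13), none of which passed. These comparisons share libraries with those of SCF, so they are not independent of them. For the difference of the SCF change between the guides, edgeR called 0 members (background 0%, 2 at unadjusted p under 0.05 against 1.98% of all genes), DESeq2 also 0, with a median of 0.10 and 66 positive, where 50.3% of all genes were negative. That median was 0.02 with the length trend removed, 0.05 without sgControl PBS replicate 3, 0.06 without sgControl SCF replicate 1 and 0.15 without sgControl PBS replicate 1. UQCR11 (0.20), COX8A (0.16) and NDUFA13 (0.18) had the smallest p there. Only 21 of the 73 intervals lay within a 1.2-fold change there. A test of any difference among the 4 groups called 0 members by edgeR (background 3.90%) and 1, NDUFB7, by DESeq2 (edgeR adjusted p = 0.171). Without the library labelled sgEGR1 SCF replicate 3, 0 members were called in each group comparison.

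Other genes of the pathway did pass the test of SCF averaged over the guides, where 9.03% of all genes were called. Of the 43 assembly factors 6 were higher and 1 lower: COA7 (0.55, edgeR adjusted p = 8.46e-06), NDUFAF4 (0.43), UQCC3 (0.32), TMEM70 (0.27), COA4 (0.24) and COX20 (0.14) rose and COX11 (-0.15) fell. Cytochrome c (CYCS, 0.32, edgeR adjusted p = 0.00412) rose with SLC25A4 (0.27) and VDAC2 (0.11), and PPRC1 rose by 0.78 on the log2 scale. Other carriers, channels and regulators did not all rise. In sgControl and sgEGR1, VDAC3 averaged 173 and 176 CPM after PBS and 174 and 178 after SCF. The regulator YY1 averaged 178 and 180 CPM after PBS and 167 and 168 after SCF. Of the 13 mRNAs of the mitochondrial genome 8 fell, among them ND4L (-0.30), ATP8 (-0.26), ND4 (-0.25) and COX1 (-0.17). They took 8.61% to 9.22% of counts in the PBS libraries and 7.14% to 8.40% in the SCF ones, without overlap. The members took 0.892% to 0.988% of counts in the PBS libraries and 0.915% to 1.00% in the SCF ones, which overlapped. In sgControl alone 6 of the 13 mitochondrial mRNAs fell, where 2.89% of all genes were called, and in sgEGR1 0 did, where 2.59% were. All 13 were negative in both. The test of the difference between the guides called 0 of the 13 (edgeR, background 0%, 0 at unadjusted p under 0.05). The guide comparisons averaged over the treatments called 0 genes of these lists (edgeR, background 0%).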

How the data were processed

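RNA-seq of HUDEP-2 cells was deposited as estimated counts per gene, which the authors made with HISAT alignment to hg38 and StringTie, per the labels and the methods. The methods state strand-specific libraries, but strand use in counting and the annotation release are not given in the sources used here. The library kit differs between labels and methods. The column code SG2 was read as sgEGR1. Of 81 members, 44 overlap another gene's exons, 25 on the same strand and 31 on the opposite strand. Pseudogene rows exist for 45, with counts equal to 0.142% of those of the members. Reads shared on the same strand or with pseudogenes cannot be told apart. Those on the opposite strand can be only if strand was used in counting.

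Counts were rounded, filtered with filterByExpr, scaled by TMM and tested with edgeR 4.0.16 (R 4.3.3) over all genes, with a Benjamini-Hochberg adjusted p under 0.05 as the call. Group comparisons used the 4 groups, and the replicate comparison added a term for replicate 1. DESeq2 1.42.0 was an alternative, as were other size factors, no filter, no mitochondrial rows, a length trend, a replicate block, a replicate 1 term, a 1.5-fold minimum and leaving out each library. Scripts were tested on simulated data. Called members were named in full up to 12, otherwise the 6 highest and 6 lowest by log2 fold change with the most significant of each complex. Where none was called, the 3 with the smallest p were named, and paralog pairs, ATP5IF1, catalytic subunits and the widest and narrowest spreads always. The members and lists were chosen with earlier results of these data known. Same-numbered libraries of the 2 guides within a treatment deviated together (correlations 0.102 to 0.269), so numbers pair them there. Between treatments, replicate 1 libraries also deviated together (0.230 to 0.272), and those of replicates 2 and 3 did so less (0.00766 to 0.108). Values of some genes are not reported here.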

Additional observations from a re-analysis of the deposited data

How the results depend on the processing

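Of 213 alternatives to 10 member counts, 188 gave the same count, or for replicate 1 a count within 1.5-fold of it. For the difference among the 4 groups, DESeq2 called 1 member (NDUFB7) where edgeR called 0. Removing the length trend called 1 member (ATP5MC1) for SCF averaged. With the replicate block, SCF called 1 member in sgEGR1 (ATP5MC1) and 2 averaged (ATP5MC1 and ATP5MC3). The block called 2 among the 4 groups and changed no other call of 0, and across guides it called 0 members. Between treatments, replicate 1 libraries deviated together as they did across guides, and those of replicates 2 and 3 did so less. With a replicate 1 term, SCF called 1 member in sgControl (ATP5IF1), 1 in sgEGR1 (ATP5MC1), 2 averaged and 3 among the 4 groups. With replicates 2 and 3 only, the counts were 1, 1, 2 and 7. A replicate 1 term with sgEGR1 SCF replicate 3 left out, chosen after seeing the data, gave 3 averaged and 2 among the 4 groups. The replicate 1 count of 32 was 0 with a minimum change of 1.5-fold, 20 in sgControl libraries only, 11 in sgEGR1 libraries only and 20 against replicate 2 alone. Leaving out each library in turn gave 16 to 34 members for replicate 1, with 16 without sgControl PBS replicate 1 and 19 without sgControl SCF replicate 1, and 0 to 1 for SCF in sgControl, SCF averaged and the 4 groups. The cause of these changes was not tested. In the SCF and guide comparisons, 44 to 69 of the 73 intervals lay within a 1.2-fold change.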
